A study of Mus musculus with 6 samples.

Results

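The 9 genes described here carry retinoic acid through the cell: the cellular retinoic acid binding proteins Crabp1 and Crabp2, the retinal dehydrogenases Aldh1a1, Aldh1a2 and Aldh1a3, the retinoic acid hydroxylase Cyp26b1, and the retinoic acid receptors Rara, Rarb and Rarg. They were chosen by name as the steps between retinal and transcription, and taken as the rows of the raw count table whose symbol was one of these names. Of the 9 genes, 6 had such a row among the 14831 rows of the table. Crabp2 had a row under its Ensembl identifier, ENSMUSG00000004885.5, with an empty symbol, and is described as a seventh. Aldh1a2 and Rarb had no row under either name, so their levels are not described.

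The libraries came from mouse pancreatic fibroblasts, cells of the connective tissue of the pancreas, which had been derived from adult animals homozygous for floxed Gli2 and floxed Gli3 alleles on a mixed strain background and then immortalized. All 6 libraries therefore share both floxed alleles, the immortalization and growth to confluence in medium with calf serum. The 3 libraries labelled WT came from cells given an adenovirus for green fluorescent protein and, per the study's methods, a lentivirus for the red protein dsRed. The 3 labelled KO came from cells given the same adenovirus and a second one for Cre recombinase, the enzyme that cuts out floxed exons, without the lentivirus. Gli2 and Gli3 are transcription factors that answer Hedgehog signaling. Each library is 1 well, no source used here says whether the wells of a group came from 1 clone or were infected separately, and the p-values below measure the spread between wells. The dsRed lentivirus and any other change between the 2 kinds of cells cannot be told apart from the loss of Gli2 and Gli3.

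Vitamin A enters cells as retinol, which is oxidized to retinal by alcohol and retinol dehydrogenases and then, irreversibly, to all-trans retinoic acid by the ALDH1A enzymes. Retinoic acid is carried by CRABP proteins, is broken down by CYP26 hydroxylases, and binds RAR receptors that sit on DNA as dimers with retinoid X receptors. In the pancreas, stellate cells store vitamin A as retinyl ester droplets in the quiescent state and lose these droplets when they become fibroblast-like, which is why this pathway is often followed in pancreatic stroma.

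The DNA element read by the receptor dimer is a pair of 6-base repeats in the same orientation, and a sequence for it is shown because Rarb and Cyp26a1 are the textbook carriers of it. Promoter sequences from RefSeq on GRCm38.p6, covering 250 bases before to 50 bases after each start, were found for 7 of the 9 genes (12 windows), with none for Crabp2 and Aldh1a3. A repeat was read as A or G, then G, then G or T, then TCA, and DR5 denotes 2 such repeats separated by any 5 bases, searched on both strands. Of 32851 promoter windows, 32 (0.0974%) held a DR5. Among the 9 genes only Rarb's window held it, at chr14:16575507-16575535 on the minus strand, with the element starting 53 bases before the start. Cyp26a1, another hydroxylase of the family and like Rarb without a row in the table, held one on the opposite strand at chr19:37697770-37697798, starting 32 bases before its start. Capitals mark the element.
Rarb: gggaagGGTTCACCGAAAGTTCActcgca
Cyp26a1: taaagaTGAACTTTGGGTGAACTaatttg
None of the windows of Crabp1, Aldh1a1, Aldh1a2, Cyp26b1, Rara or Rarg held a DR5, the same pair with 2 bases between (DR2, 0.268% of all windows) or with 1 base (DR1, 0.222%), or the GLI-binding sequence TGGGTGGTC (0.253%). These letters say nothing of elements farther from the starts.

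Library totals ran from 31728420 to 41035931 counts, so that 3 counts were worth between 0.0720 and 0.0957 CPM (counts scaled to a common library size, here with TMM factors). Gli2 and Gli3 themselves were not lower in the libraries labelled KO. Under the WT label Gli2 had 809, 944 and 868 counts, and under the KO label 1932, 2316 and 1926 (log2 fold change 1.05, adjusted p = 8.01e-10). Gli3 counts were 392, 416 and 398 against 1434, 1637 and 1404, a log2 fold change of 1.71 (adjusted p = 2.10e-11). These are counts over whole genes, which do not resolve the floxed exons, so they neither bear out the labels nor test the deletion. The study checked the deletion in these lines by its own qPCR and western blots, and reported that its KO fibroblasts did not respond to Hedgehog stimulation. Those measurements are not analysed here. Transcripts that Hedgehog signaling induces were lower in the libraries labelled KO: Ptch1, the Hedgehog receptor, by 1.53 on the log2 scale (adjusted p = 2.16e-11), Gli1 by 2.40 (adjusted p = 2.30e-05), and Hhip, a Hedgehog-binding membrane protein, from 39, 42 and 44 counts to 0 in all 3 libraries, at least 15.7-fold. Because of Gli2 and Gli3, the groups are called by their labels throughout.

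Fibroblast markers were abundant in both groups, and lower in the libraries labelled KO: the 8 of 10 with a row summed to 44822 to 47236 CPM under the WT label and 36783 to 38533 CPM under the KO label. Of 7 tested, 4 were called lower and 0 higher. Those lower were Dcn (log2 fold change -1.55), Col3a1 (-0.94), Pdgfra (-0.90) and Pdgfrb (-0.66), while Col1a1, Col1a2 and Vim were not called. Thy1 was not tested. Its counts rose from 4, 1 and 0 under the WT label to 19, 15 and 9 under the KO label. Mesothelial markers were higher in the libraries labelled KO. For all 7 with a row, of 10 listed, the lowest library labelled KO exceeded the highest labelled WT. All 6 tested were called higher. The 7 summed to 29.4 to 34.3 CPM against 337 to 340 CPM, led by Msln and Bnc1. Epithelial markers with a row summed to 20.2 to 22.7 CPM against 44.0 to 45.5 CPM, with 3 of 4 tested called higher. The other, Sox9, was not called but was lower by adjusted p alone, with 269, 281 and 273 counts against 198, 251 and 214. The defining markers Epcam and Krt19 had no row. Of 4 macrophage and leukocyte markers with a row 0 were called, with Ptprc and Adgre1 absent, and Vwf was the only one of 8 endothelial markers with a row. Over all 14289 genes tested, 11.6% were called higher and 6.1% lower, and the groups did not overlap for 64.2%. In these bulk samples, fewer cells of a type and less RNA per cell cannot be told apart, and the part of the fibroblast, mesothelial and epithelial transcripts in the retinoid results was not tested.

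The 7 retinoid genes with rows lay at very different levels, and Aldh1a1 and the receptors stood far above the rest. Per kilobase of exon, in the libraries labelled WT, the mean level was 98.9 ± 2.25 CPM per kb for Aldh1a1 (SD, n = 3, as for all levels below), 56.0 ± 0.456 for Rarg, 13.5 ± 0.120 for Rara, 2.26 ± 0.110 for Cyp26b1, 0.181 ± 0.0499 for Crabp1, 0.180 ± 0.0614 for Crabp2 and 0.0959 ± 0.0183 for Aldh1a3. Aldh1a1 ranked 365 of the 14831 rows on this scale and Rarg ranked 766. Crabp1 and Crabp2 did not differ beyond their spread, and every other pair of neighbours in this order was separate in all 3 libraries, except that the lowest Crabp2 library, at 0.118, nearly met the highest Aldh1a3 library, at 0.116. In the libraries labelled KO the order was kept, with Crabp1 now apart from Crabp2 at 0.641 ± 0.154 against 0.170 ± 0.0505 CPM per kb.

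**Figure D1:**
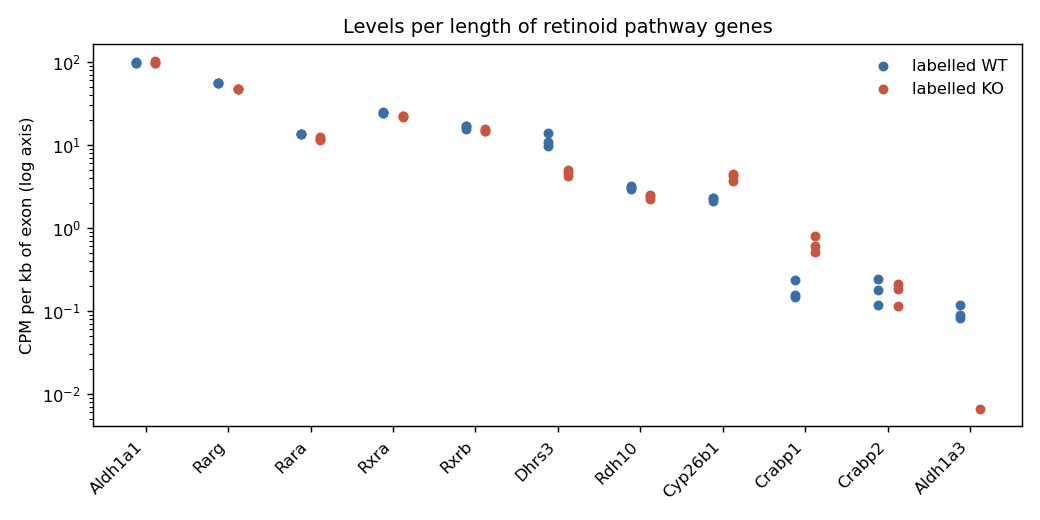
Level of 7 of the 9 retinoid genes and of 4 neighbouring pathway genes (Rxra, Rxrb, Dhrs3, Rdh10) in CPM per kilobase of exon on a log axis, 1 point per library; values of 0 (2 Aldh1a3 libraries labelled KO) cannot be drawn. Aldh1a1 lies near 99 CPM per kb in both groups, while Crabp1, Crabp2 and Aldh1a3 lie below 1.

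Between the groups, Cyp26b1 and Crabp1 were higher and Aldh1a3 was lower in the libraries labelled KO, Rara and Rarg were slightly lower, and Aldh1a1 did not differ by more than a few percent. A gene was called when its adjusted p was under 0.05 and its change at least 1.5-fold. Of 6 retinoid genes tested, 2 were called higher and 1 lower, where 11.6% of all 14289 genes tested were called higher, 6.1% lower and 17.7% in either direction. By adjusted p alone, 2 passed as higher and 3 as lower, against 29.9% and 28.8% of all genes, or 58.7% in all. With so wide a difference between these 2 lines, the share of the retinoid genes that passed by p alone says little about them as a set. The groups did not overlap for 5 of the 7 genes, against 64.2% of all genes. Crabp1 and Aldh1a3 entered the test only through the group where they were higher, so these counts are a description.

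**Figure D2:**
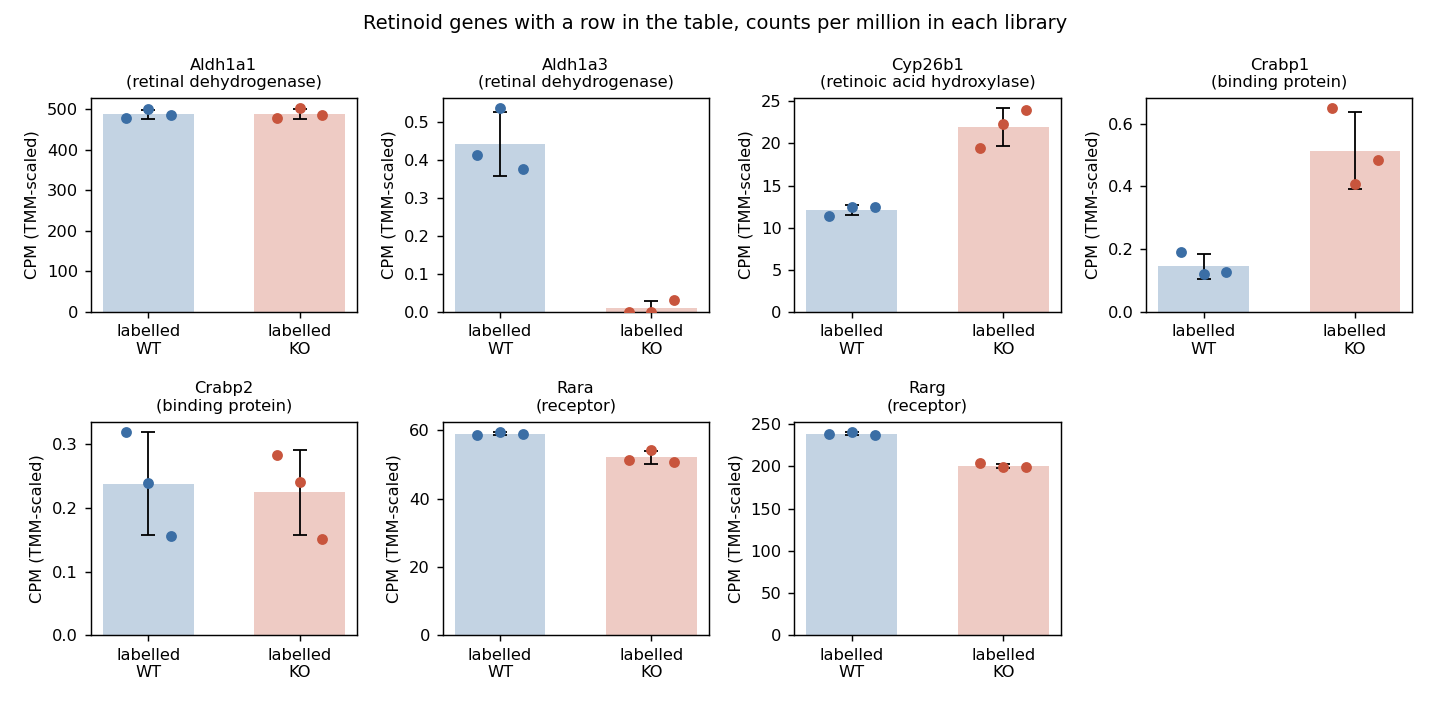
CPM of the 7 retinoid genes with a row, 1 panel per gene with its own linear axis from 0; points are libraries, bars group means and error bars the SD over 3 libraries. The groups are apart for Aldh1a3, Cyp26b1, Crabp1, Rara and Rarg, and overlap for Aldh1a1 and Crabp2.

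The 2 dehydrogenases with a row, which make retinoic acid, behaved unalike. Aldh1a1 (ENSMUSG00000053279.8, chr19:20492715-20643465, plus strand), the dehydrogenase that oxidizes retinal and other aldehydes, had 15004, 16760 and 15492 counts under the WT label and 16905, 20963 and 16048 under the KO label. Scaled, these were 479, 500 and 485 CPM against 477, 503 and 486 CPM, and the groups overlapped throughout their range. The means were 488 ± 11.1 and 489 ± 13.0 CPM, with a log2 fold change of 0.00 (SE 0.03, adjusted p = 0.959). Its 95% interval, from -0.06 to 0.07, holds changes of less than 1.05-fold. Of the 50-base words in its exons, 3.06% also occur in Aldh1a7, a close paralog, so a small part of its reads could fall to either gene.

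Aldh1a3 (ENSMUSG00000015134.15, chr7:66390890-66427517, minus strand), which makes retinoic acid from all-trans retinal with high activity, was a rare transcript that was nearly absent in the libraries labelled KO. Its counts were 13, 18 and 12 under the WT label and 0, 0 and 1 under the KO label. Every library labelled WT was above every one labelled KO, at 0.443 ± 0.0843 CPM against at most 0.0303 CPM. The change was called lower (adjusted p = 2.66e-05), and against a floor of 3 counts per library it was at least 5.36-fold. The fitted log2 fold change, -5.14, depends on the prior count and became -6.96 without labelled KO replicate 3, the only one with a count.

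Within the ALDH1A genes with a row, Aldh1a3 made up 0.0967 ± 0.0164% of counts per length under the WT label and 0.00222 ± 0.00385% under the KO label. The difference, -0.0945 percentage points, had a two-sided exact permutation p of 0.1, the smallest that 3 against 3 libraries allow. Aldh1a1 thus made up more than 99% of this class in each of the 6 libraries. As its level was alike in both groups, the share restates the Aldh1a3 counts above and is no separate result.

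Cyp26b1 (ENSMUSG00000063415.12, chr6:84571414-84593908, minus strand), which hydroxylates all-trans retinoic acid toward inactive products, was higher in the libraries labelled KO. Its counts were 358, 416 and 398 against 691, 932 and 791, or 11.4, 12.4 and 12.5 CPM against 19.5, 22.4 and 24.0 CPM. The lowest library labelled KO was above the highest labelled WT by more than the range within either group. The mean rose from 12.1 ± 0.590 to 21.9 ± 2.25 CPM, a log2 fold change of 0.86 (SE 0.08, 95% interval 0.69 to 1.02, adjusted p = 9.04e-07), or 1.81-fold. None of its 50-base words is shared with another annotated gene. The other hydroxylases of the family, Cyp26a1 and Cyp26c1, had no row.

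The balance of the hydroxylase and the main dehydrogenase was read within each library. For every 1000 counts of Aldh1a1 there were 23.9, 24.8 and 25.7 counts of Cyp26b1 in the libraries labelled WT. In those labelled KO there were 40.9, 44.5 and 49.3. The means, 24.8 ± 0.916 and 44.9 ± 4.22, differed 1.81-fold, and the groups did not overlap. This ratio needs no scaling between libraries, and was chosen after the values of both genes had been seen, so it carries no test.

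**Figure D3:**
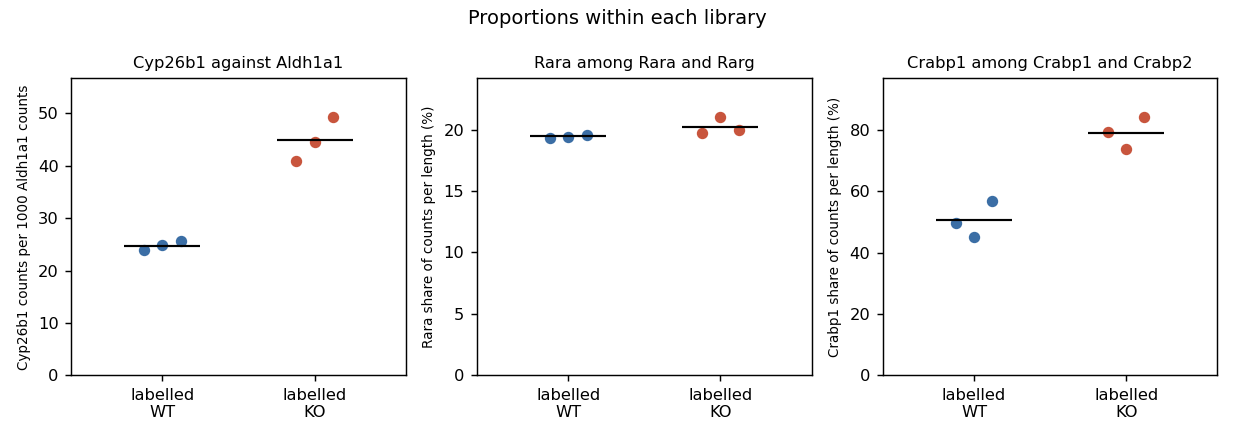
Proportions computed inside each library, with points for libraries and lines for group means: Cyp26b1 counts per 1000 Aldh1a1 counts (left), the Rara share of Rara and Rarg counts per length (middle) and the Crabp1 share of Crabp1 and Crabp2 counts per length (right). The Cyp26b1 ratio, the Crabp1 share and the Rara share are each apart between groups, the last by less than 1 percentage point on average.

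The binding proteins were scarce. Crabp1 (ENSMUSG00000032291.8, chr9:54764748-54773110, plus strand), a cytoplasmic carrier linked to retinoic acid turnover, had 6, 4 and 4 counts under the WT label and 23, 17 and 16 under the KO label. The groups did not overlap, at 0.119 to 0.191 CPM against 0.408 to 0.650 CPM. The mean went from 0.145 ± 0.0400 to 0.514 ± 0.123 CPM, a log2 fold change of 1.79 (SE 0.37, adjusted p = 0.00108). Its 95% interval, from 0.99 to 2.59, spans 1.98-fold to 6.03-fold, wider than that of Cyp26b1. In the libraries labelled KO it still ranked 11897 of 14831 rows per length.

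Crabp2 (ENSMUSG00000004885.5, chr3:87948666-87953376, plus strand), which delivers retinoic acid to the nuclear receptors, had 10, 8 and 5 counts under the WT label and 10, 10 and 5 under the KO label. The groups overlapped fully, at 0.238 ± 0.0812 and 0.225 ± 0.0668 CPM. It was under the count filter and so was not tested. Without the filter its log2 fold change was -0.07 (95% interval -0.96 to 0.83, adjusted p = 0.901). The interval runs from 0.512 to 1.77 times the level under the WT label, so differences within these bounds were not excluded.

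The share of Crabp1 within the pair was higher in each library labelled KO. Crabp1 made up 49.7%, 45.2% and 56.9% of CRABP counts per length in the libraries labelled WT. In those labelled KO it made up 79.1%, 73.7% and 84.1%. The difference was 28.4 percentage points (two-sided exact permutation p = 0.1, the smallest the design allows), with as few as 9 counts of both genes in a library. As the mean of Crabp2 hardly differed, the share follows the Crabp1 counts given above and is no separate result.

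The receptors were abundant, steady between wells and slightly lower in the libraries labelled KO. Rarg (ENSMUSG00000001288.15, chr15:102234938-102257517, minus strand), the receptor best known in skin and skeletal tissue, had 7464, 8072 and 7575 counts against 7211, 8296 and 6583. Scaled, these were 238, 241 and 237 CPM against 204, 199 and 199 CPM, and every library labelled KO was below every library labelled WT. The mean fell from 239 ± 1.94 to 201 ± 2.55 CPM, a log2 fold change of -0.25 (SE 0.03, 95% interval -0.31 to -0.19, adjusted p = 6.42e-06). That is 0.840 of the level in the libraries labelled WT, past the test and under the 1.5-fold limit.

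Rara (ENSMUSG00000037992.16, chr11:98927818-98974942, plus strand), the most widely expressed of the receptors, had 1833, 1994 and 1885 counts against 1812, 2260 and 1678. Scaled, these were 58.5, 59.5 and 59.0 CPM against 51.2, 54.2 and 50.8 CPM, again without overlap. The log2 fold change was -0.18 (SE 0.04, 95% interval -0.26 to -0.10, adjusted p = 0.00112), or 0.883 of the level in the libraries labelled WT. Across 14 other settings it stayed lower, between -0.21 and -0.12, and Rarg between -0.27 and -0.19.

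Rarg was the main receptor transcript in both groups, at 3.76 to 4.17 times Rara per length in the 6 libraries. Rara made up 19.4 ± 0.104% of the 2 under the WT label and 20.2 ± 0.699% under the KO label. The difference of 0.773 percentage points had a two-sided exact permutation p of 0.1, the smallest possible. Without labelled KO replicate 2, at 21.0%, it was 0.375 percentage points. Rarb, the receptor whose promoter element is printed above and which retinoic acid itself induces in many cells, had no row. Its exons overlap those of Top2b on the opposite strand over 1793 of 5265 bases, and whether the counting used strand is not given in the sources used here.

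**Figure D4:**
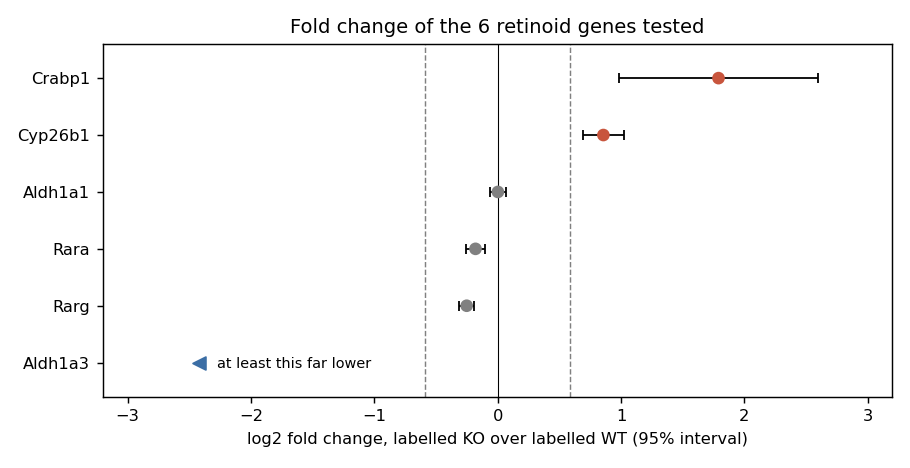
Log2 fold change, labelled KO over labelled WT, of the 6 retinoid genes tested, with 95% intervals; dashed lines mark 1.5-fold, red and blue mark genes called higher and lower, and grey marks genes not called. The arrow for Aldh1a3 is its lower bound of 5.36-fold, and the intervals of Rara and Rarg lie between 0 and the 1.5-fold line.

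The genes around these steps gave the wider pathway. Of 64 genes of retinoid uptake, oxidation, hydroxylation, receptor partnership and coregulation, 48 had a row and were tested, with 10 called higher and 5 lower. That is 31.25% in either direction, against 17.7% of all genes, and their median log2 fold change was 0.00, as over all genes tested. Adh7, Rdh12, Bco2, Zfp423 and, in the other direction, Rbp2 entered the test only through the group where they were higher, so the share is a description. When every library had to reach 10 counts, 10 of 43 pathway genes were called, or 23.3%, against 14.6% of all genes. As they were listed with earlier results of these data known, no test of the list was made.

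Of the 10 pathway genes called higher, 5 were oxidoreductases of retinol and retinal. Of 20 listed 14 were tested, with 5 called higher and 1 lower, against 11.6% and 6.1% of all genes. Adh7 and Rdh12 passed the count filter only through the libraries labelled KO, so this count is a description. When every library had to reach 10 counts, 3 of 12 were called higher and 1 lower, where 14.6% of all genes were called in either direction. Adh7, an alcohol dehydrogenase active on retinol, had 6, 4 and 10 counts under the WT label and 568, 668 and 511 under the KO label (log2 fold change 6.24, adjusted p = 4.63e-12). Rdh12, known as a retinal reductase of the photoreceptor, had 3, 1 and 4 counts against 33, 26 and 32 (log2 fold change 3.27). Adh1, the classical liver alcohol dehydrogenase, had 11, 25 and 14 against 46, 53 and 39 (1.27). Aldh1a7, the paralog of Aldh1a1, had 102, 86 and 85 against 186, 183 and 152 (0.75), and shares 7.49% of its 50-base words with Aldh1a1. Exons of Adh7 and Adh1 overlap an antisense gene over 108 of 3787 and 136 of 2233 bases, and with the strand setting unknown its reads cannot be told apart there. The fifth, Rdh5, rose by 0.69 on the log2 scale, but 720 of its 2809 exon bases overlap Bloc1s1 on the same strand. In the libraries labelled KO Adh7 stood at 15.9 ± 0.321 CPM, and the other 4 genes that rose at 6.53 CPM or less.

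Dhrs3 was the oxidoreductase called lower. It reduces retinal back to retinol, and it is itself induced by retinoic acid in many cells. Its counts were 1280, 1069 and 917 under the WT label and 515, 567 and 412 under the KO label (log2 fold change -1.32, SE 0.11, adjusted p = 4.83e-07). The groups were far apart despite a spread of 33.8 ± 6.28 CPM in the libraries labelled WT. Rdh10, the main retinol dehydrogenase of embryos, had a log2 fold change of -0.38 (adjusted p = 4.61e-04), under the 1.5-fold limit.

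Of 14 genes for uptake, transport and storage, 7 were tested, with 1 called higher and 2 lower, against 11.6% and 6.1% of all genes. Bco2 and Rbp2 passed the count filter only through the group where they were higher, so this count is a description. Bco2, which cleaves carotenoids, was higher, with 6, 4 and 6 counts against 28, 25 and 22 (log2 fold change 2.02), and overlaps an antisense gene over 161 of 2118 exon bases. Scarb1, a lipoprotein receptor that also takes up carotenoids, was lower, with 2132, 2109 and 1907 counts against 1353, 1483 and 1141 (-0.82). Rbp2, an intestinal retinol binding protein, was lower at few counts, with 20, 16 and 16 against 11, 5 and 6 (-1.41). Stra6, the receptor for the retinol carrier, and Lrat, which esterifies retinol for storage, had no row.

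A further list held 12 markers of quiescent stellate cells, the state in which vitamin A is stored. Of these, 5 had a row, 4 were tested and 0 were called, where 17.7% of all genes were. By adjusted p alone, which 8391 genes (58.7%) passed in all, 2 of the markers were higher and 1 lower. Des and Lrat had no row.

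The retinoid X receptors were also slightly lower in the libraries labelled KO. Rxra, which is the partner most often found with Rara and Rarg, stood at 24.6 ± 0.411 CPM per kb under the WT label and 22.0 ± 0.178 under the KO label (log2 fold change -0.16, adjusted p = 5.30e-04). Rxrb changed by -0.14 (adjusted p = 0.00866), which missed the threshold under at least 1 other setting (adjusted p up to 0.104). Neither passed the 1.5-fold limit, and Rxrg had no row. Of the 12 genes tested among the retinoid X receptors and their partners, 3 were called higher and 1 lower, against 11.6% and 6.1% of all genes. Those higher were Vdr, the vitamin D receptor (1.26), Ppara, a fatty acid receptor (1.11), and Nr4a1, an orphan receptor (0.68). Nr1h3, an oxysterol receptor (-0.96), was lower. Nr4a1 lost its call without labelled WT replicate 3, at 0.58.

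Of 15 coregulators tested, 13 were not called, close to the share over all genes, of which 17.7% were called. Zfp423, a zinc finger partner of the receptors, was higher, from 7, 4 and 1 counts to 14, 21 and 18 (log2 fold change 1.93). It passed the count filter only through the libraries labelled KO. Ncoa3, a coactivator, was lower (-0.74). By adjusted p alone 8 were lower and 2 higher, where 28.8% and 29.9% of all genes were.

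**Figure D5:**
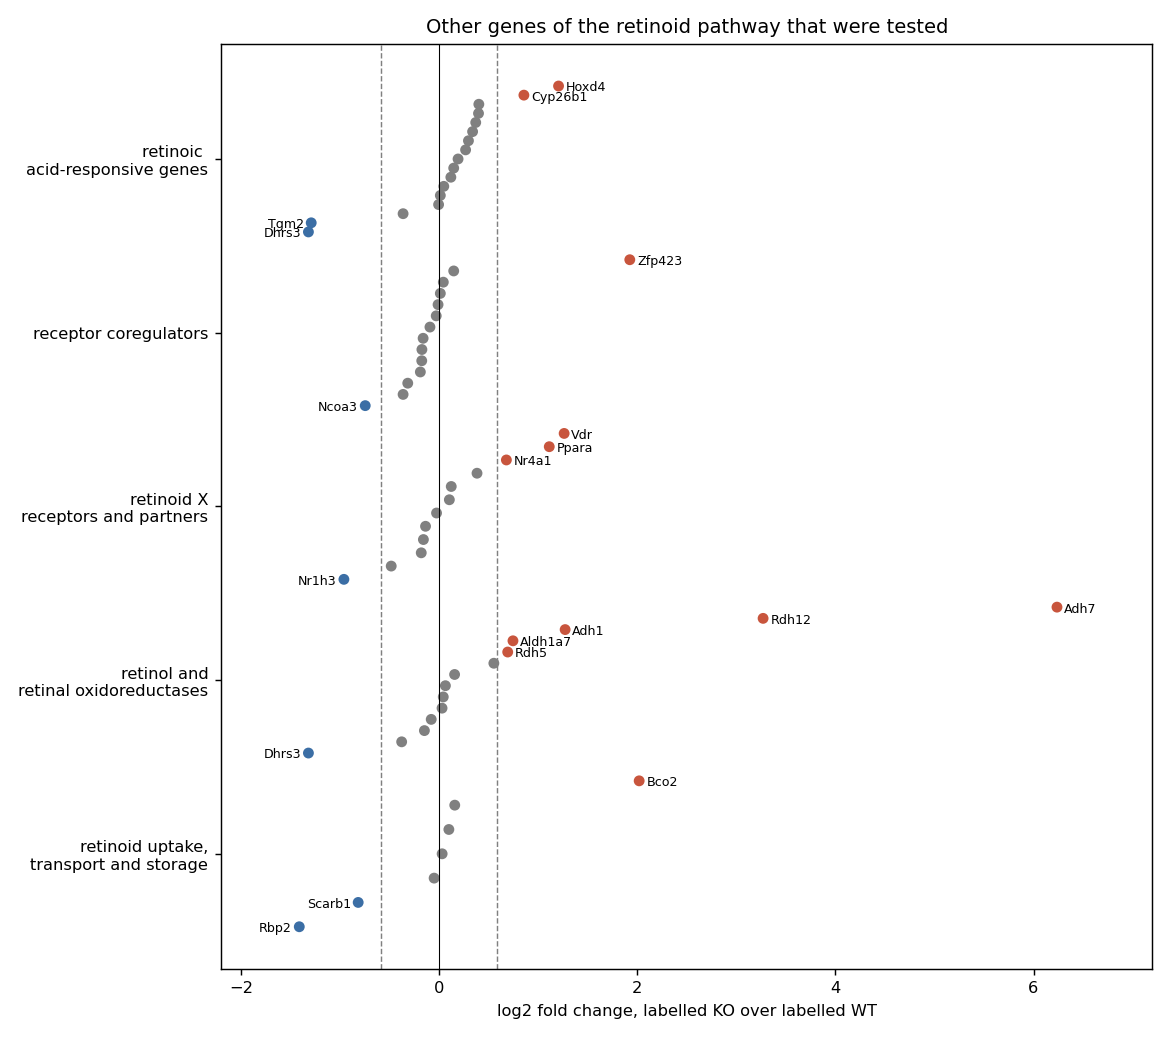
Log2 fold change, labelled KO over labelled WT, of tested genes in 5 lists of the pathway, leaving out genes not reported here, with dashed lines at 1.5-fold; red genes were called higher, blue lower, grey not called. Adh7, at 6.24, lies farthest to the right and Rbp2, at -1.41, farthest to the left, and most coregulators lie between the dashed lines.

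Genes known to respond to retinoic acid did not move one way. Of 30 listed, 19 had a row and 18 were tested, with 2 called higher and 3 lower, against 11.6% and 6.1% of all genes. Their median log2 fold change was 0.17, against 0.00 over all genes tested. Those called lower included Dhrs3 and Tgm2. Tgm2, a transglutaminase, had 18625, 18935 and 16911 counts under the WT label and 8074, 9707 and 7599 under the KO label (log2 fold change -1.29, adjusted p = 2.93e-11), and overlaps other genes on the opposite strand, the larger overlap 633 of 4608 exon bases. Those called higher were Cyp26b1 itself and Hoxd4. As Hoxd4 passed the count filter only through the libraries labelled KO, the count of genes called is a description.

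Hoxd4, a homeobox gene with a known retinoic acid element, rested on 9, 1 and 5 counts against 11, 18 and 11, with a log2 fold change of 1.21 and an adjusted p of 0.0498. It kept its call in 5 of 13 other settings and lost it without labelled WT replicate 2 (adjusted p = 0.188), labelled WT replicate 3 (0.0950), labelled KO replicate 1 (0.0665), labelled KO replicate 2 (0.157) or labelled KO replicate 3 (0.0589). Its exons also overlap Hoxd3 on the same strand.

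By adjusted p alone, 10 responsive genes were higher and 4 lower, against 29.9% and 28.8% of all genes. The higher ones included Hoxa2 (log2 fold change 0.40), Hoxa3 (0.27), Hoxa4 (0.37), Hoxa5 (0.30), Hoxb2 (0.40), Hoxb4 (0.19) and Hoxb5 (0.34). These are homeobox genes of the HoxA and HoxB clusters, and all were under the 1.5-fold limit. Several of them overlap antisense or read-through transcripts of their cluster, and their counts may hold reads of these. They were named after their values had been seen.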

How the data were processed

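Poly-A RNA libraries from 3 wells per group were aligned and counted by the authors (STAR 2.7.2b, featureCounts, GRCm38.p6 and limma are named in the submitters' notes; strand setting not given in the sources used here). The deposited files hold raw counts per gene and, in a second table, log2 CPM values; the authors had already dropped low genes, as the smallest row total was 20 counts. Groups followed the labels, and replicates were numbered by accession order, which pairs nothing.

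Counts were tested with edgeR 4.0.16 (R 4.3.3; TMM, filterByExpr, quasi-likelihood test, Benjamini-Hochberg over 14289 genes). DESeq2 1.42.0 and limma 3.58.1 (voom, and the deposited log2 values), other scalings, filters, fold limits and leaving out each library were alternatives. Shares were compared by two-sided exact permutation tests on counts per base of exon union (GENCODE M21). Lengths and locations used 14822 matched identifiers. The fits were tested on simulated data. Named were the 9 genes, the Hedgehog check, the nearest pathway steps, and up to 4 called genes per list and direction with at least 10 counts in each library of the higher group. Members and lists were chosen with earlier results of these data known. Counting error for 3-count floors excludes other error. A few genes of the lists are not reported here by name.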

Additional observations from a re-analysis of the deposited data

How the results depend on the processing

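The calls of Crabp1, Cyp26b1 and Aldh1a3 were kept in every alternative that tested them, with log2 fold changes of 1.58 to 2.03 (13 settings), 0.79 to 0.93 (14) and -6.96 to -4.52 (13). Aldh1a1 stayed uncalled in all 14, and its sign changed with no count filter (-0.000203), DESeq2 (-0.000580) and limma on the deposited log2 values (-0.000361); leaving out 1 library gave -0.0207 to 0.0186. A minimum of 10 counts in every library removes Crabp1, Crabp2 and Aldh1a3 by construction, leaving 1 retinoid gene called higher and 0 lower (Rara and Rarg, 2 genes, were still lower at an unadjusted and an adjusted p under 0.05). Without a fold limit 3 were called lower, with 31 pathway and 14 responsive genes called; at 2-fold 1 was called higher, with 9 pathway and 3 responsive genes. Using longest transcripts, the Aldh1a3 share differed by -0.0605 percentage points, since the exon union of Aldh1a1 holds 4937 bases and its longest transcript 2358. Depth limits Crabp1, Crabp2 and Aldh1a3, whose counts did not pass 23 in any library. Upper-quartile scaling moved the median of all genes by 0.06 on the log2 scale.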
